A study of Rattus norvegicus with 16 samples.

Results

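MiR-210 is the microRNA most closely tied to low oxygen, and it was followed here in the left ventricle of rats with reduced kidney mass. Both arms of its hairpin, miR-210-3p and miR-210-5p, were taken by name from the count tables, which makes 2 of the 317 rat miRNAs that all 4 weekly tables list. Both arms passed the filter on low counts, with 306 miRNAs tested in all. Male Sprague Dawley rats on 0.4% Dyets chow had surgery at 10 weeks of age, either a sham operation or the excision form of 5/6 nephrectomy (5/6Nx), which removes most of the kidney mass. Left ventricles were collected 2, 4, 5 or 7 weeks afterwards, and the series title names cardiorenal syndrome type 4, in which chronic kidney disease harms the heart. For every combination of surgery and week, 8 in all, there were 2 libraries, here called pools A and B, and each library was made from small RNA of 2 to 3 rats. Whether a group's pools held different animals is not stated, so p-values here reflect how much the 16 pools scattered, which may be technical.

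MiR-210 is transcribed when hypoxia-inducible factors are stabilised, and its hairpin is cut into a 3p arm, the guide strand in most tissues, and a 5p arm that is mostly degraded. Known targets of the 3p arm include ISCU, a scaffold for iron-sulfur clusters whose repression lowers mitochondrial respiration, and EFNA3, an ephrin ligand in vessel growth. In heart muscle miR-210 is known as part of the response to ischaemia.

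The mature arms are shown because the seed (bases 2 to 8, in capitals) sets which messages a miRNA can pair with, and miR-3574 is shown because it lies on the other strand of the same bases. All sequences are from RefSeq, build GRCr8, written 5′ to 3′.
rno-miR-210-3p: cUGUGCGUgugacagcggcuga
rno-miR-210-5p: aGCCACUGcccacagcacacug
rno-miR-3574: uCAGCCGCugucacacgcacag
In the hairpin the capitals mark the 5p arm first and the 3p arm after it.
Mir210 hairpin: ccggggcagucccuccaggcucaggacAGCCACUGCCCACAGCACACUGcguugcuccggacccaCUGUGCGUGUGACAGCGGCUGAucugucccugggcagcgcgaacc
The 110-base hairpin lies at chr1:205755923-205756032 on the minus strand, inside the long non-coding RNA gene LOC102553043 and between the protein-coding genes Rassf7 and Phrf1. MiR-210-3p occupies chr1:205755946-205755967 and miR-210-5p chr1:205755984-205756005. MiR-3574 occupies the bases of the 3p arm on the plus strand and is its exact reverse complement over 22 bases. Among the 693 mature rat miRNA names with a sequence, 0 others carry the seed of either arm, so no seed family member could be set beside miR-210. The nearest other mature sequence was 9 edits from the 3p arm and 8 from the 5p arm, and of the tested miRNAs 277 had a sequence to compare.

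A library held 672057 to 3509549 counts on rat miRNAs, and the 2 sham libraries of week 7 were the shallowest. The 6 cardiomyocyte miRNAs were present in each library, from the muscle-specific miR-133a-3p at a mean of 52571 CPM (counts per 1000000 counts on rat miRNAs, scaled with edgeR's TMM factors) to miR-133b-3p at 23.6 CPM. Of 5 miRNAs listed for other organs, the liver miRNA miR-122-5p and the neuronal miR-124-3p did not pass the filter on low counts. The other 3 did, with means of 2028 CPM for miR-192-5p of kidney and gut, 184 CPM for the neuronal miR-9a-5p and 4.03 CPM for the islet miRNA miR-375-3p. These are whole ventricles, in which fewer cells of a type and less RNA per cell cannot be told apart.

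MiR-210-3p was a middle-ranking miRNA of the ventricle. It had 177 to 904 reads per library and 8759 in all, which gives a counting error of 3.33% to 7.52% per library. Its mean level was 267 CPM, rank 98 of 306, between miR-28-5p at 269 CPM and miR-320-3p at 254 CPM. The highest library held 1.77 times the level of the lowest.

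At week 2 the sham pools had 219 and 199.1 CPM of miR-210-3p, from 413 and 624 reads. The 5/6Nx pools of that week had 332 and 288 CPM, from 477 and 546 reads. Both 5/6Nx pools lay well above both sham pools, and the 2 ranges did not overlap. At week 4 the sham pools had 221 and 252 CPM and the 5/6Nx pools 262.5 and 241 CPM. These ranges overlapped, since the higher sham pool stood above the lower 5/6Nx pool. At week 5 the sham pools had 215 and 229 CPM and the 5/6Nx pools 254 and 240 CPM. At week 7 the sham pools had 323 and 294 CPM and the 5/6Nx pools 350 (349.9) and 352 CPM. In both of these weeks the 5/6Nx pools were the higher ones with no overlap, but by a smaller margin than at week 2. Across all weeks the 8 sham pools ran from 199.1 to 323 CPM with a median of 225 CPM, and the 8 5/6Nx pools from 240 (239.97) to 352 CPM with a median of 275 CPM.

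**Figure D1:**
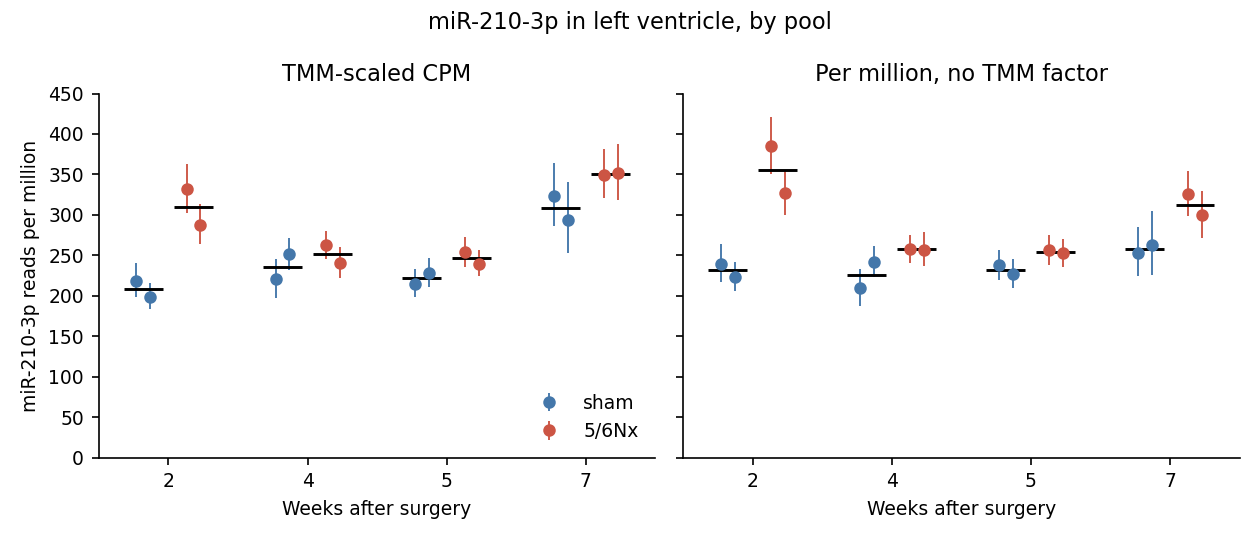
MiR-210-3p in each pool by week after surgery, in CPM, with TMM factors on the left and without them on the right. Points are pools, vertical lines are exact 95% Poisson intervals of the read count, and horizontal lines are group means (n = 2). The 5/6Nx pools of week 2, at 332 and 288 CPM, stand clear of the sham pools of that week, and the pools of week 7 are high in both groups in the left panel.

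Placed in order, the group means (± SD, n = 2 pools) began with sham at week 2, at 209 ± 14.05 CPM. Sham at week 5 followed at 222 ± 9.52 CPM, sham at week 4 at 236 ± 21.6 CPM, 5/6Nx at week 5 at 247 ± 9.97 CPM and 5/6Nx at week 4 at 252 ± 15.4 CPM. The pools of each of these neighbours overlapped. Sham at week 7 came next at 309 ± 20.3 CPM and stood above 5/6Nx at week 4 with no overlap. 5/6Nx at week 2 was at 310 (309.99) ± 31.1 CPM, overlapping with sham at week 7, and 5/6Nx at week 7 was highest at 351 ± 1.24 CPM, above 5/6Nx at week 2 with no overlap. This order depended on the scaling. With no TMM factor 5/6Nx at week 2 (384.8 and 326.7 CPM) lay above 5/6Nx at week 7 (325.4 and 299 CPM). Sham at week 7 (253 and 263 CPM) was then below both and overlapped with 5/6Nx at week 4 (258 and 257 CPM).

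The first comparison asks how miR-210-3p in the ventricle differed between 5/6Nx and sham at each time. At week 2 it was 1.48-fold higher after 5/6Nx, a log2 difference of 0.57 ± 0.15 (SE, 95% interval 0.25 to 0.89). This was the 8th smallest p of 306 in edgeR's quasi-likelihood test and did not pass after Benjamini-Hochberg adjustment (edgeR adjusted p = 0.0649). In that week 2 of 306 miRNAs passed, or 0.654%, and 64 had an unadjusted p under 0.05, or 20.9%. DESeq2 placed the week 2 difference past the threshold, at 0.56 with an adjusted p of 0.00954, but it called 37 miRNAs in that week.

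The later differences were smaller, and each interval included 0. At week 4 the log2 difference was 0.09 ± 0.15 (interval -0.22 to 0.40, edgeR adjusted p = 0.910). At week 5 it was 0.15 ± 0.15 (-0.16 to 0.47, edgeR adjusted p = 0.740), and at week 7 it was 0.18 ± 0.15 (-0.14 to 0.51, edgeR adjusted p = 0.538). The share of miRNAs that passed was 0.654% at week 4, 0% at week 5 (0 of 306 by edgeR, with 27, or 8.82%, at an unadjusted p under 0.05 and 7 called by DESeq2) and 4.25% at week 7. A test of whether the difference itself varied between weeks did not pass for miR-210-3p (edgeR F = 2.16, adjusted p = 0.374), and 1.63% of miRNAs passed it. The larger value at week 2 is therefore not shown to differ from those of the later weeks. At week 5 the sign was not stable, since leaving out pool A of the week 5 sham group gave -0.02 and leaving out pool A of the week 5 5/6Nx group gave -0.05, when the TMM factors were computed anew.

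Averaged over the 4 weeks, miR-210-3p was 1.19-fold higher after 5/6Nx, a log2 difference of 0.25 ± 0.07 (interval 0.09 to 0.41). This came close to the threshold and did not pass it (edgeR adjusted p = 0.0578), in a comparison where 17 of 306 miRNAs passed, or 5.56%. Other scalings and tests fell on both sides of it, with adjusted p from 0.00968 with DESeq2 and 0.0296 with no TMM factor to 0.197 at most when a library was left out. Without week 2 the mean difference was 0.14 (edgeR adjusted p = 0.399), and without week 7 it was 0.27 (edgeR adjusted p = 0.169). An exact permutation test of miR-210-3p alone, with labels exchanged within weeks, gave a mean difference of 0.25 on the log2 scale (two-sided p = 0.00309 over 1296 relabellings, the smallest possible being 0.00154). That p is for 1 miRNA, chosen with earlier results of these data known, and carries no adjustment for the others tested. Without week 2 the permutation p was 0.0185 at a difference of 0.14.

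**Figure D2:**
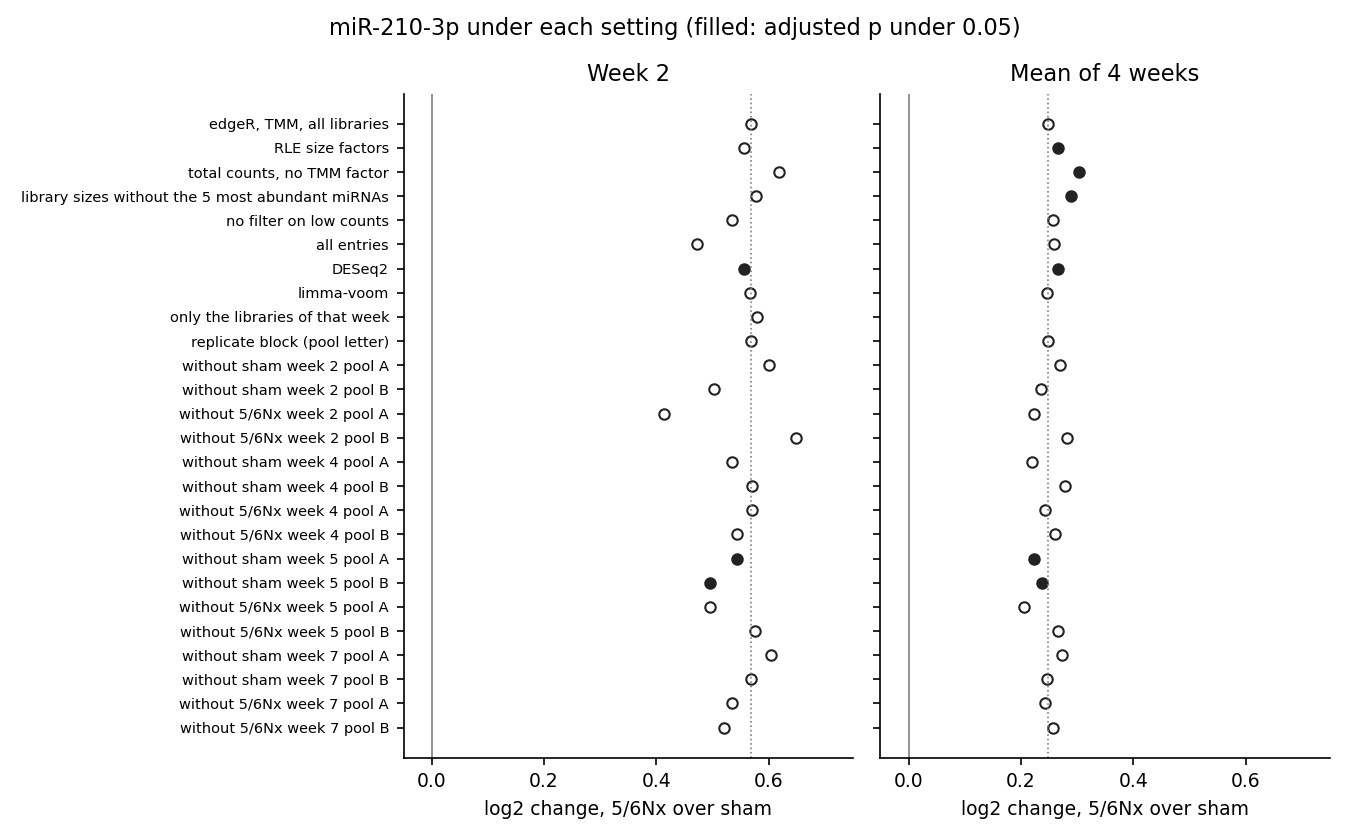
The log2 difference of miR-210-3p between 5/6Nx and sham at week 2 (left) and as the mean of 4 weeks (right), 1 point for each setting or left-out pool, with the value of the edgeR test on all libraries as a dotted line. Filled points have an adjusted p under 0.05. All points lie to the right of 0, and most are open.

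How often the pools separated depended on the scaling. With TMM factors the 5/6Nx pools lay above the sham pools in 3 of the 4 weeks, and 25 of 306 miRNAs, or 8.17%, did so in 3 or more. In single weeks that separation was found for 30.4% of miRNAs at week 2, 16% at week 4, 21.6% at week 5 and 27.1% at week 7. In CPM with no TMM factor, a scaling added after the data were seen, it held for miR-210-3p in all 4 weeks. At week 4 the sham pools then had 209 and 242 CPM and the 5/6Nx pools 258 and 257. Altogether 6 of 306 miRNAs, or 1.96%, were separated in all 4 weeks on that scale, against 2 of 306, or 0.654%, with TMM factors, which were miR-221-3p and miR-193-3p. The fitted log2 difference of miR-210-3p was above 0 in each of the 4 weeks, as it was for 18 of 306 miRNAs, or 5.88%.

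The authors' deposited table gave miR-210-3p log2 fold changes of 0.52 at week 2, 0.22 at week 4, 0.13 at week 5 and 0.22 at week 7. In the authors' deposited table the p-values of these changes were 0.201, 0.454, 0.802 and 0.560 (0.5597), and each adjusted p was 1.

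The second comparison asks how miR-210-3p differed between weeks within each kind of surgery. Among the sham groups it differed, from 209 CPM at week 2 to 309 CPM at week 7 (edgeR F = 5.56, adjusted p = 0.0364, with 31.4% of miRNAs passing). Among the 5/6Nx groups it differed too, with 310 (309.99) CPM at week 2, 252 CPM at week 4, 247 CPM at week 5 and 351 CPM at week 7 (edgeR adjusted p = 0.0305, with 38.6% passing). With no TMM factor the highest 5/6Nx pools were those of week 2 rather than week 7. The difference among sham groups was lost with no TMM factor (edgeR adjusted p = 0.668), where the sham pools of week 7 had 253 and 263 CPM and those of week 2 had 240 (239.9) and 223.2. It passed in 3 of 16 fits that left out a library, and that among 5/6Nx groups in 9 of 16. The sham libraries of week 7 were the shallowest, and week cannot be told apart from any handling that differed between weeks.

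Several measures of the libraries stood apart at week 2 together with miR-210-3p. The 5/6Nx libraries of that week had 70.1% and 79.0% of reads mapped, against 82.7% and 88.5% in the sham libraries. The 3 erythrocyte miRNAs (miR-451-5p, miR-144-3p and miR-144-5p) all lay above sham, with a median log2 difference of 1.02 against 0.03 over all miRNAs, although 0 of 3 passed. Their summed level was 248 to 314 CPM in sham and 505 to 803 CPM after 5/6Nx. Of the smooth muscle pair, miR-145-5p rose after 5/6Nx at week 2 (log2 0.78, edgeR adjusted p = 0.0259), the 1 miRNA of 306 (0.327%) that passed upward in that week, a call lost in 9 of 16 fits that left out a library and with no TMM factor (adjusted p = 0.0671). MiR-143-3p, its partner from the same transcript, was at 0.26 (edgeR adjusted p = 0.705), and the pair summed to between 148311 and 189475 CPM in sham and between 197091 and 208530 CPM after 5/6Nx. The 6 cardiomyocyte miRNAs summed to between 51541 and 65078 CPM in sham and between 38062 and 45729 CPM after 5/6Nx, and 0 of 6 passed. Of these, 3 lay above sham and 3 below, with a median log2 difference of -0.03, and the most abundant, miR-133a-3p, was at -0.53. The leukocyte list also summed lower after 5/6Nx (2033 to 2568 CPM against 2920 (2919.9) to 3465 CPM in sham), as did the fibroblast list (2302 to 2412 CPM against 2579 to 2595 CPM). Yet 4 of 5 leukocyte members and 2 of 3 fibroblast members lay above sham, beside 51.3% of all tested miRNAs. The most abundant member of each list lay below, miR-150-5p at -0.60 and miR-199a-3p at -0.19. The endothelial pair summed higher (30227 to 30687 CPM against 25085 to 27886 CPM), as did the miRNAs of other organs (2010 (2010.0) to 2231 CPM against 1521 to 1805 CPM), and 0 members of these 4 lists passed at week 2. In the endothelial pair the more abundant miR-126a-5p was at 0.26 and miR-126a-3p at -0.17. All 3 tested miRNAs of other organs lay above sham, with miR-192-5p, the most abundant, at 0.38 and miR-9a-5p at 0.01. The part of these measures in the miR-210-3p values was not tested.

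The cardiomyocyte sum lay below sham with no overlap at week 4 too (50272 to 60498 CPM against 68134 (68133.5) to 68550 (68550.0) CPM) and at week 7 (55295 to 57191 CPM against 64173 to 69296 CPM), and at week 5 the groups overlapped. At week 7, 5 of its 6 members lay below sham, with a median log2 difference of -0.22 against -0.04 over all miRNAs. The 1 member above sham, miR-208b-3p, carried in an intron of the slow myosin gene, rose at that week (log2 1.48, edgeR adjusted p = 0.000536), when 4.25% of all miRNAs passed and 3.27% passed upward. The leukocyte sum lay below sham with no overlap at week 4 (1590 (1589.8) to 1642 CPM against 1808 to 2006 CPM) and at week 7 (1050 (1049.95) to 1181 CPM against 1219 to 1323 CPM). At week 4, 4 of its 5 members lay below sham, when only 38.9% of all tested miRNAs lay above it. At week 7, 4 of 5 members lay above, beside 45.8% of all tested miRNAs. Their median log2 difference at week 7 was 0.38, and only the most abundant, miR-150-5p, lay below sham (-0.48). The 1 member that passed in that week was miR-223-3p of myeloid cells, upward (log2 1.19, edgeR adjusted p = 0.00733). Its call was lost when pool A of either group of that week was left out. At weeks 4, 5 and 7 the summed erythrocyte level of the 5/6Nx pools overlapped with that of the sham pools. In the same weeks the other-organ sum lay below sham with no overlap, opposite to week 2. It was 1979 to 2116 CPM against 2181 to 2317 CPM at week 4. At week 5 it was 1989 to 2029 CPM against 2318 to 2420 CPM. At week 7 it was 2372 to 2415 CPM against 2842 to 2920 CPM. The fibroblast sum lay below sham at week 4 (2454 to 2551 CPM against 2586 to 2727 CPM). At week 5 it lay above (2737 to 2911 CPM against 2218 to 2293 CPM), also with no overlap. At week 7 the summed level of the 3 fibroblast miRNAs was 2310 to 2385 CPM in sham and 3123 to 3182 CPM after 5/6Nx, and 1 of 3 passed, miR-199a-5p (log2 0.91, edgeR adjusted p = 0.00756, lost without either sham pool of that week). On the mean of weeks miR-145-5p (0.33) and miR-223-3p (0.44) passed upward and miR-499-5p (-0.29) and miR-9a-5p (-0.43) downward, where 5.56% of all miRNAs passed, and these calls were lost in 6, 10, 10 and 13 of 16 fits that left out a library. The summed levels of the 2 endothelial miRNAs, miR-126a-3p and miR-126a-5p, lay between 16732 and 59532 CPM over all groups and 0 of 2 passed in any of these comparisons. The 2 sham pools of week 5 alone were at 16732 and 56618 CPM, and for miR-143-3p pools A and B of that group were at 81808 and 258438 CPM. Of the miRNAs of other organs, the neuronal miR-9a-5p fell at week 7 (log2 -1.20, edgeR adjusted p = 0.00651), a call lost in 3 of 16 such fits.

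MiR-210-5p, the other arm of the hairpin, was scarce. It had 4 to 23 reads per library and 203 in all, a mean of 6.52 CPM and rank 266 of 306. Over all libraries there were 43.1 reads of the 3p arm for each read of the 5p arm. The 5p arm held 2.27% of the reads of both arms, from 0.727% (exact 95% interval 0.199% to 1.85%) in 5/6Nx pool B of week 2 to 3.76% (2.17% to 6.04%) in 5/6Nx pool B of week 7. These intervals, like all of those given for reads, cover counting error only.

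The 5p arm did not pass the test between 5/6Nx and sham in any week. Its log2 difference was -0.80 ± 0.47 at week 2 (95% interval -1.82 to 0.22, edgeR adjusted p = 0.356), when the 3p arm stood at 0.57. At week 4 it was -0.44 ± 0.42, at week 5 0.27 ± 0.37 and at week 7 0.12 ± 0.45 (edgeR adjusted p = 0.866, 0.816 and 0.923). The signs at weeks 5 and 7 each turned when 1 library was left out. The mean over weeks was -0.21 ± 0.22 (edgeR adjusted p = 0.596). At this depth the SE of a weekly difference of the 5p arm was 0.37 to 0.47, against 0.15 for the 3p arm. Within 5/6Nx the 5p arm differed between weeks (edgeR adjusted p = 0.0248, with 38.6% of miRNAs passing). It had 4.87 and 2.11 CPM at week 2, from 7 and 4 reads, and 9.26 and 13.8 CPM at week 7, from 14 and 16 reads. That call was lost without 5/6Nx pool A of week 4, without 5/6Nx pool B of week 7 and with no TMM factor (adjusted p = 0.0643).

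MiR-3574, the reverse complement printed above, followed miR-210-3p from library to library. It had 5640 reads, a mean of 174 CPM, and 0.584 to 0.711 reads for each miR-210-3p read in a library. Its correlation with miR-210-3p in log2 CPM over the 16 libraries was r = 0.96 (Spearman's rho = 0.95), the highest of all tested miRNAs. The points share the library and its scaling, and r was also 0.96 after the mean of each week was subtracted. Whether the counting separated the strands is not given in the sources used here, so how far the 2 entries hold the same reads cannot be said from these tables. The log2 difference of miR-3574 between 5/6Nx and sham was 0.64 ± 0.16 at week 2 (edgeR adjusted p = 0.0649) and 0.27 ± 0.08 on the mean of weeks (edgeR adjusted p = 0.0578). With its reads added to those of miR-210-3p, an alternative chosen after the data were seen, the week 2 difference was 0.60 (edgeR adjusted p = 0.0731) and the mean 0.26 (edgeR adjusted p = 0.0474, past the threshold). Such a sum would count more than once any reads that both entries hold, so that crossing cannot be read as added support.

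**Figure D3:**
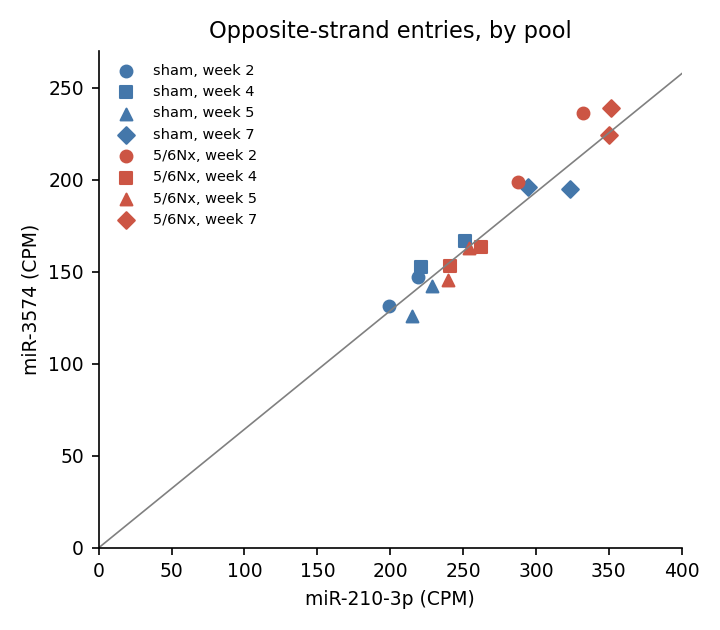
The level of miR-3574 against that of miR-210-3p in each of the 16 pools, both in TMM-scaled CPM, with colour for surgery, shape for week and a line at the ratio of all reads of the 2 entries (0.644). The pools lie close to the line, with single-library ratios of 0.584 to 0.711.

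**Figure D4:**
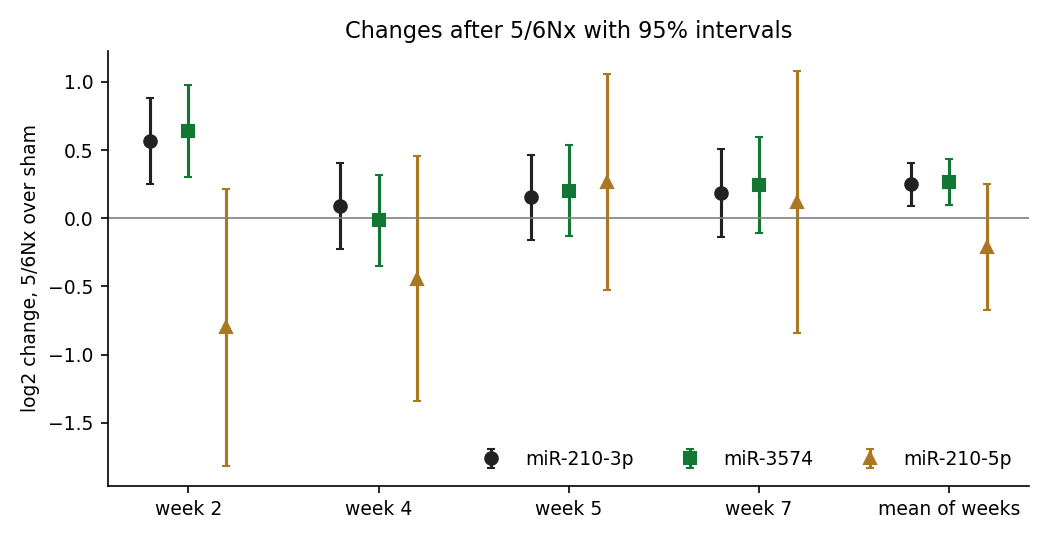
The log2 difference between 5/6Nx and sham of miR-210-3p, miR-3574 and miR-210-5p in each week and on the mean of weeks, with 95% intervals from edgeR. The 3p arm and miR-3574 are highest at week 2, at 0.57 and 0.64, and the intervals of the 5p arm span 0 in every week.

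After miR-3574, the miRNAs most like miR-210-3p over the 16 libraries were miR-21-3p (r = 0.82, rho = 0.84), miR-132-3p (0.76, 0.71), miR-143-3p (0.67, 0.71) and miR-148b-3p (0.67, 0.64). Without week 7 these values of r were 0.64, 0.50 (0.498), 0.36 and 0.25, so much of the likeness lay in that week. MiR-21-3p, the passenger arm of the fibrosis-associated miR-21, rose on the mean of weeks (log2 0.93, edgeR adjusted p = 0.00301), as did miR-132-3p (log2 0.81, edgeR adjusted p = 0.00481), a miRNA known to drive cardiomyocyte growth. On that mean 3.59% of all miRNAs passed upward. MiR-143-3p (log2 0.08, edgeR adjusted p = 0.861) and miR-148b-3p (log2 0.20, edgeR adjusted p = 0.153) did not pass. With the mean of each week subtracted, miR-3574 was followed by miR-22-5p (r = 0.84, rho = 0.75), miR-345-5p (0.82, 0.66), miR-145-5p (0.81, 0.74) and miR-23b-3p (0.80, 0.70). Without week 7 these were 0.90 (0.895), 0.92, 0.86 and 0.82. The correlation of the 2 arms of miR-210 was r = 0.42 (rho = 0.36), and without week 7 it was r = -0.45.

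Other miRNAs known to be raised by hypoxia were set beside miR-210. The list held 17, of which 15 were tested. On the mean of weeks 10 of 15 lay above sham, as did 45.8% of all tested miRNAs, and 2 rose, with 5.56% of all miRNAs called in either direction and 3.59% upward. Those 2 were miR-21-5p (log2 0.62, edgeR adjusted p = 8.91e-05), a miRNA of stressed fibroblasts and myocytes, and miR-23b-3p (log2 0.44, edgeR adjusted p = 0.0169), whose call was lost in 5 of 16 fits that left out a library. The lowest was miR-181b-5p at -0.23. The median of the list was 0.09 and that of all tested miRNAs -0.02.

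By week, 10, 6, 10 and 10 of the 15 lay above sham at weeks 2, 4, 5 and 7, against 51.3%, 38.9%, 55.6% and 45.8% of all tested miRNAs. Their medians were 0.12, -0.04, 0.05 and 0.19, beside -0.08 to 0.05 over all tested miRNAs. At week 7 miR-21-5p was the 1 member that passed (log2 1.47, edgeR adjusted p = 1.4e-05) where 3.27% of all passed upward, and 0 of 15 passed in the other weeks. At week 2, where its log2 difference was largest, miR-210-3p (0.57) was above the median of the list (0.12), and at week 7 the 2 were nearly level (0.18 and 0.19).

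A further list held 10 miRNAs known to be lowered by hypoxia or to target HIF1A, the oxygen-regulated subunit, and 7 were tested. On the mean of weeks 5 of 7 lay above sham, beside 45.8% of all tested miRNAs, and 0 passed, beside 5.56% of all, with a median of 0.06 against -0.02. The highest was miR-18a-5p at 0.66 (edgeR adjusted p = 0.258), a scarce miRNA with a mean of 5.21 CPM and 0 CPM in sham pool A of week 7. The lowest was miR-22-3p at -0.21. At weeks 2, 4, 5 and 7 the medians were 0.18, 0.01, -0.19 and 0.01, and miR-199a-5p, which is known to repress HIF1A, was the 1 member that passed, at week 7 and in the upward direction, in which 3.27% of all miRNAs passed.

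**Figure D5:**
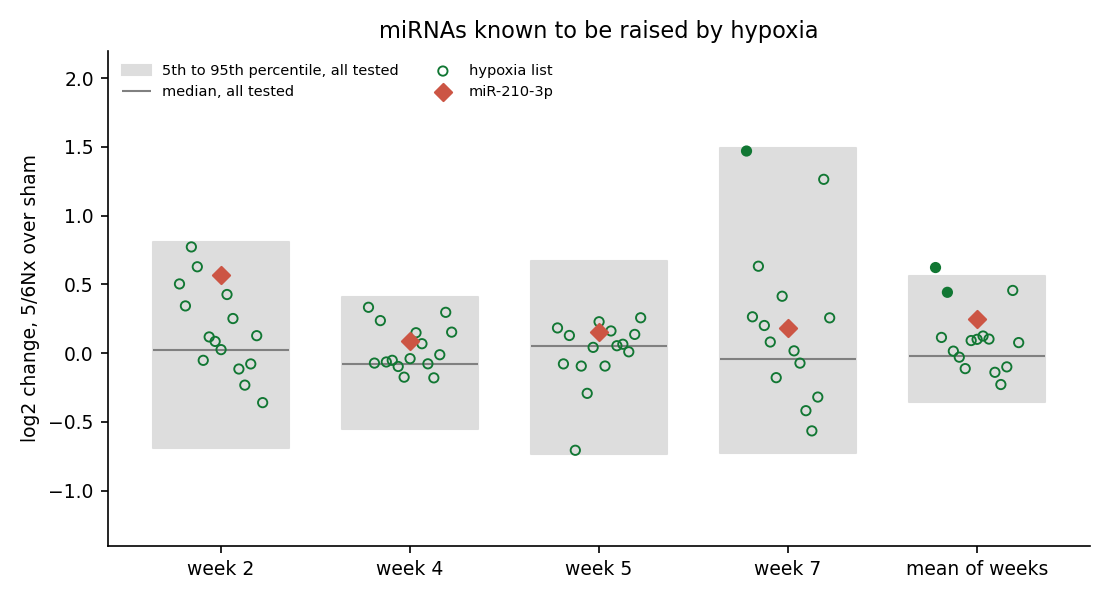
The log2 difference between 5/6Nx and sham of the 15 tested miRNAs known to be raised by hypoxia (circles, filled where the adjusted p is under 0.05) and of miR-210-3p (diamond), by week and on the mean of weeks. Grey bars span the 5th to 95th percentile of all 306 tested miRNAs and lines are their medians. MiR-21-5p is the filled circle at week 7, at 1.47, and miR-210-3p lies inside the grey bar in every column.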

How the data were processed

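Each week has a deposited table of unnormalized counts (whole numbers, named as counts per the file headers), in which the authors also gave p-values and log2 fold changes of 5/6Nx against sham. Total reads and the percent that mapped stand in another deposited table. Per the submitters' processing notes, cutadapt, Bowtie and DESeq were used. Not given in the sources used here are the tool versions, the build, the annotation, the counting tool and its strand setting. Count tables name pools A and B and sample titles number replicates, which were not joined.

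The 317 rat miRNAs in all 4 tables were tested with edgeR 4.0.16 (R 4.3.3): 8 group means over 16 libraries, TMM scaling, filterByExpr by group (minimum count 10), which left 306, and the quasi-likelihood F test with Benjamini-Hochberg adjustment over those 306 within a comparison. Tests are two-sided, with a threshold of 0.05, and were tested on simulated data. DESeq2 1.42.0 and limma 3.58.1 were alternatives. Read counts have exact 95% Poisson intervals and shares exact binomial (Clopper-Pearson) ones. They cover counting error only, since reads carry no molecular identifiers. Each library had 672057 to 3509549 counts on rat miRNAs.

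The members, the lists and the tests were chosen with earlier results of these data known. Named are both arms of miR-210, list members that passed a surgery comparison, the highest and lowest of each hypoxia list on the mean of weeks, the 5 miRNAs most correlated with miR-210-3p with and without week means, its neighbours in level, and miR-3574 for its sequence. MiR-221-3p, miR-193-3p, miR-150-5p and miR-199a-3p were named after their values were seen. The lists come from general knowledge, and heart tissue expresses many of the miRNAs listed for other cell types.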

Additional observations from a re-analysis of the deposited data

How the results depend on the processing

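For the mean of weeks the log2 difference of miR-210-3p kept its direction in all settings tried, and edgeR's adjusted p of 0.0578 passed the threshold with RLE size factors (0.27, adjusted p = 0.0432), no TMM factor (0.30, 0.0296), the 5 most abundant miRNAs left out of library sizes (0.29, 0.0421), DESeq2 (0.27, 0.00968) and the reads of miR-3574 added (0.26, 0.0474). Adding the reads of miR-3574 may count some reads more than once. The difference did not pass with limma-voom (0.25, adjusted p = 0.0537), no filter on low counts (0.26, 0.0674) or all entries (0.26, 0.0826). Leaving out each library in turn gave 0.21 to 0.28 (adjusted p 0.0230 to 0.197, 2 of 16 fits passing) and, with the TMM factors kept as an alternative chosen after the data were seen, 0.22 to 0.27 (3 of 16). An additive model, also added later, gave 0.25 (adjusted p = 0.204). At week 2 DESeq2 gave 0.56 (adjusted p = 0.00954), and leaving out libraries gave 0.41 to 0.65 (2 of 16 passing, both without a sham pool of week 5) and 0.46 to 0.67 with the TMM factors kept. The other ranges without 1 library were 0.01 to 0.21 at week 4, -0.0495 to 0.19 at week 5 (0.11 to 0.20 with the TMM factors kept) and 0.14 to 0.28 at week 7. A left-out library moved a TMM factor by up to 0.125 on the log2 scale. Of 10 other settings at week 2, DESeq2 was the 1 that passed, and the highest adjusted p was 0.125, from edgeR on all entries.

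The difference between weeks among sham groups did not pass with no TMM factor (adjusted p = 0.668), with those 5 left out (0.346) or with no filter (0.0557), and leaving out libraries gave 0.00545 to 0.233. Among 5/6Nx groups it did not pass with those 5 left out (0.0663), and leaving out libraries gave 0.00293 to 0.103. The permutation p ranged from 0.00154 to 0.0262 without 1 library. MiR-3574 at week 4 (-0.02) turned positive with RLE factors (0.0642), no TMM factor (0.0826), those 5 left out (0.0196), no filter (0.0458), all entries (0.08996), DESeq2 (0.0629) and that week alone (0.0797). Without 1 library it was -0.0686 to 0.0999 at week 4 and -0.0445 to 0.28 at week 5. MiR-210-5p was then at -0.11 to 0.47 at week 5 and -0.0632 to 0.43 at week 7, negative without sham pool B of week 5 and without 5/6Nx pool B of week 7. The causes were not tested.

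The number of miRNAs called moved from 2 to 37 with DESeq2 at week 2 (0 to 56 without 1 library), from 0 to 7 at week 5, from 17 to 26 on the mean and from 5 to 27 for the interaction. In fits of 1 week alone it moved from 2 to 5 at week 2, from 2 to 16 at week 4 and from 13 to 34 at week 7. The pool letter did not pair the samples (correlations of the pool differences of sham and 5/6Nx of 0.10 (0.0989), -0.09, 0.02 and -0.18 at weeks 2, 4, 5 and 7). With the letter as a block, miR-210-3p was at 0.57 at week 2 (adjusted p = 0.0909) and 0.25 on the mean (0.0677).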

Other observations

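MiR-210-3p and miR-3574 were not the only miRNAs listed on opposite strands of the same bases. Among the tested miRNAs 21 such pairs overlap by 15 bases or more in RefSeq. Over the 16 libraries their correlations in log2 CPM ran from -0.08 to 0.9995, with a median of 0.95, and points of a pair share the library and its scaling. In miR-338-3p and miR-3065-5p, the rarer entry had 0.930 (0.9296) to 0.987 reads per read of the other in a library. In miR-378a-3p, a miRNA of oxidative muscle, and miR-3557-5p this ratio was 0.795 to 0.849, and in let-7d-5p and miR-3596b it was 0.853 to 0.902. Another pair with a narrow range was at 0.778 to 0.854 for miR-3588 against miR-125b-5p. In some pairs the ratio varied more between libraries relative to its size, at 0.0810 (0.08103) to 0.196 for miR-133c against miR-133a-3p, whose correlation was -0.08, and at 0.592 to 1.82 for miR-3556b against miR-29c-3p. How reads were shared between such entries was not tested.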
